A study of Canis rufus and Canis latrans with 56 samples.

Results

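The genes described here encode the histones and the high mobility group (HMG) chromatin proteins, as measured in whole blood of red wolves (Canis rufus, an endangered canid of North America) and 1 coyote. They were chosen by the gene symbol of the array's probe annotation: symbols of the histone families H1, H2A, H2B, H3 and H4, of macroH2A, and of HMGB, HMGN and HMGA, older histone names included. The rule found 87 genes among the 16121 genes named on the array. Of these, 82 had 1 probe and 5 had several (H2AZ2, HMGA1, MACROH2A1, H2BC5 and H2AJ), 95 probes together, and the brightest probe stood for its gene. By class they were 64 replication-dependent histones, 12 replication-independent histones, 4 HMGB, 5 HMGN and 2 HMGA genes. The classes went by gene symbol. Every gene named H3-, H3-4 among them, was counted as replication-independent, and its message was not examined.

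Histones are the proteins around which DNA is wound in nucleosomes. Replication-dependent histones come from clusters of near-identical genes whose messages are made mainly while a cell copies its DNA and mostly lack a poly(A) tail, while replication-independent variants such as H3.3 and H2A.Z are made throughout the cell cycle from polyadenylated messages. HMGB proteins bend DNA, and HMGB1 released from cells is an alarm signal to immune cells; HMGN proteins bind nucleosomes, and HMGA proteins bind AT-rich DNA.

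The study used blood of 13 red wolves, of which 6 lived in captivity (4 males, 2 females) and 7 ranged freely (5 males, 2 females) by the design text, and of 1 free-ranging female coyote. The labels used here do not say which wolf is captive or of which sex, so captive and free-ranging wolves, or the sexes, could not be compared, and each wolf is an individual with no group. RNA of each animal was amplified, labelled with biotin and hybridised to 4 Illumina bead arrays with probes for human genes, 56 arrays on 7 slides of 8 arrays. The 4 arrays of an animal carry the same labelled RNA, so their spread is technical and each animal is 1 replicate.

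Levels are given as log2 intensity against the array's own mean, so that 1 unit means a 2-fold change of intensity, and the slide's effect was removed in the value of each animal. A gene name is that of the human probe, and the canid transcript behind each signal was not examined. Levels of different probes depend on how each probe binds, so they are not used to rank genes by their RNA. The choice of the brightest probe and the background bound given next do set probes side by side, and share that limit. Blood should lack the genes of liver and skeletal muscle; of 49 such genes measured, HPX had the highest mean, 0.396, which served as the background bound. A total of 1597 named genes exceeded it. Of the blood cell markers measured, those above the bound were 9 of 17 for red cells, 1 of 21 for neutrophils, 1 of 12 for monocytes, 3 of 17 for T cells, 0 of 14 for B and plasma cells, 2 of 12 for NK and cytotoxic cells and 1 of 12 for platelets. Precision is limited by how many arrays there are, and the 95th percentile of the values of an array ran from 0.33 to 1.24.

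Of the 87 genes, 13 had a mean level above the bound. The replication-independent histones H3-3A, H2AZ2, H2AZ1 and H1-10 were 4 of the 12 in their class, and H2AC20, H2AC12, H2BC6, H2BC4 and H1-2 were 5 of the 64 replication-dependent histones. The HMG genes above the bound were HMGB2 and HMGB1 of 4, HMGN3 of 5 and HMGA1 of 2. No H4 gene of 14 reached the bound, and of 14 H3 genes only H3-3A did. The genes nearest below the bound were H3C12 at 0.36 and H2BC9 at 0.34, and HMGA1 at 0.65 was the nearest above it. The other 74 genes lay between -0.36 and 0.36, as did the further probes of HMGA1, MACROH2A1, H2BC5 and H2AJ. For these genes a level could not be told from background, so whether the blood cells hold their messages cannot be said.

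The first comparison asked which histone and HMG genes differed among the 13 wolves by more than the 4 arrays of a wolf differed. As the arrays of a wolf share its labelled RNA, a difference among wolves cannot be told apart from one of blood sampling, amplification or labelling. By limma's moderated F test with slide as a covariate, at an adjusted p under 0.05 over all probes, 16 of the 87 genes differed, where 12.8% of all named genes did. All 13 genes above the bound passed, where 79.1% of the named genes above the bound passed. Below the bound 3 of 74 passed (H3C10, H2BC3 and H4C6), where 5.52% of the named genes there passed. The median SD over wolves was 0.40 for the 13 genes and 0.25 for all named genes above the bound, and the median share of variance that lay between wolves was 0.74 and 0.55. Over the 87 genes the median SD was 0.084, and over all named genes 0.088.

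**Figure D1:**
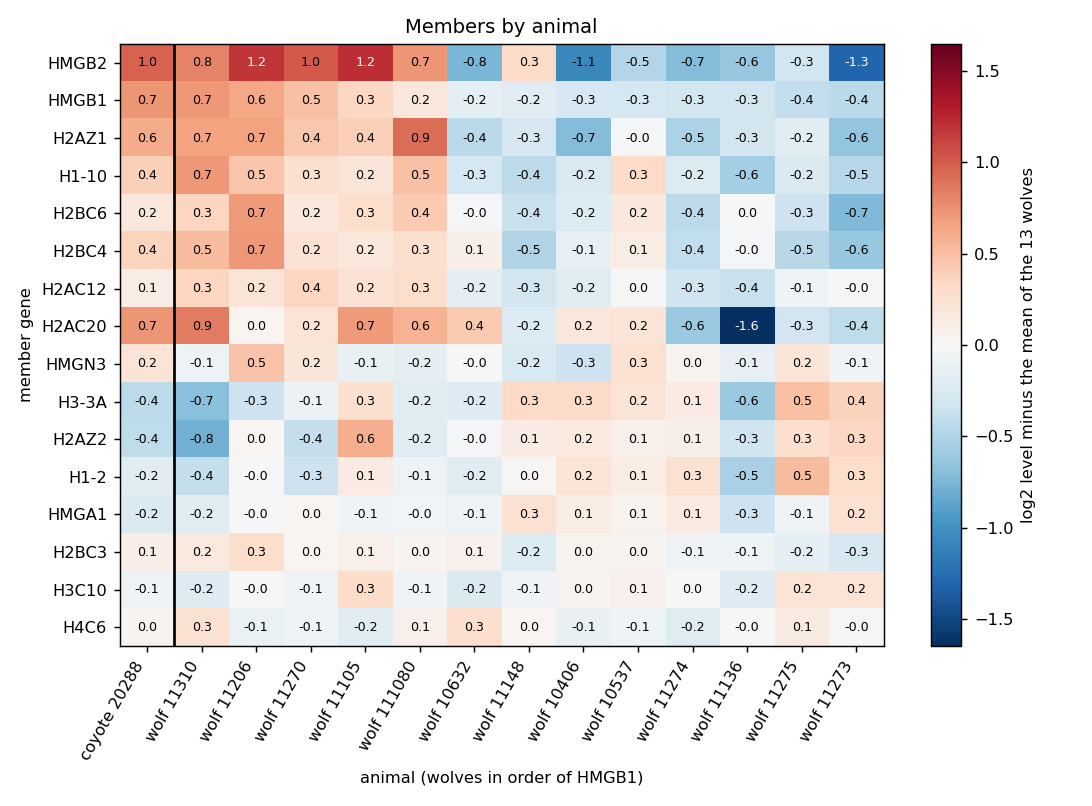
Log2 level of 16 histone and HMG genes (rows; the 13 above the bound, then the 3 below it that differed among wolves) in each animal (columns; the coyote, then wolves in falling order of HMGB1), as the difference from the mean of the 13 wolves. The upper 7 genes are high in the coyote and in wolves 11310, 11206, 11270, 11105 and 111080. H3-3A, H2AZ2 (probe 1), H1-2 and HMGA1 are low in the coyote and in wolves 11310 and 11136. Probes 2 and 3 of H2AZ2 are not shown, and among the wolves both were highest in 11310.

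In the sentences that follow, values of the wolves are in the order of their numbers: 10406, 10537, 10632, 11105, 11136, 11148, 11206, 11270, 11273, 11274, 11275, 11310 and 111080. HMGB2, a DNA-bending protein abundant in dividing and blood-forming cells, had a log2 level of 2.85 in the coyote, and in the wolves it had 0.81, 1.40, 1.12, 3.09, 1.25, 2.19, 3.05, 2.88, 0.57, 1.17, 1.56, 2.70 and 2.61. Wolves 11105, 11206, 11270, 11310 and 111080 were high, 11148 was next, and the other 7 lay at 1.56 or below. The span over wolves was 5.72-fold in intensity, the SD over wolves 0.90 and the SD between arrays of a wolf 0.41 (adjusted p = 9.99e-19, limma F test).

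HMGB1, the related protein that also acts as an alarm signal outside cells, had a log2 level of 1.61 in the coyote, and in the wolves it had 0.60, 0.58, 0.72, 1.22, 0.57, 0.71, 1.52, 1.37, 0.43, 0.57, 0.47, 1.59 and 1.06. The same 5 wolves were high, at 1.06 or above, and the other 8 lay between 0.43 and 0.72, with a gap between both sides. The SD over wolves was 0.42 and that between arrays 0.31 (adjusted p = 4.17e-09). HMGB1 has many processed copies in mammalian genomes, and which copy the probe bound is uncertain. The other HMGB genes, HMGB3 and HMGB4, lay below the bound and did not pass the test.

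H2AZ1, which encodes the H2A.Z variant found at promoters, had a log2 level of 2.36 in the coyote, and in the wolves it had 1.03, 1.73, 1.30, 2.13, 1.44, 1.47, 2.41, 2.19, 1.10, 1.23, 1.57, 2.41 and 2.67. Wolves 11105, 11206, 11270, 11310 and 111080 were again the highest, at 2.13 or above, and the next wolf, 10537, stood at 1.73. The SD over wolves, 0.55, was well over the 0.17 between arrays, and 0.91 of the variance lay between wolves (adjusted p = 4.14e-20). H1-10, a linker histone made outside S phase, had 1.33 in the coyote, and in the wolves it had 0.69, 1.25, 0.65, 1.15, 0.38, 0.51, 1.40, 1.21, 0.48, 0.71, 0.71, 1.65 and 1.42. Here wolf 10537 stood among the high wolves, and 11136 was lowest. The SD over wolves was 0.42 against 0.18 between arrays (adjusted p = 2.02e-15).

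Among the replication-dependent histones, H2BC6 had a log2 level of 1.24 in the coyote, and in the wolves it had 0.83, 1.24, 1.04, 1.35, 1.06, 0.69, 1.76, 1.23, 0.34, 0.63, 0.71, 1.41 and 1.49. H2BC4 had 1.26 in the coyote, and in the wolves it had 0.75, 1.01, 0.99, 1.07, 0.88, 0.40, 1.60, 1.14, 0.27, 0.49, 0.43, 1.42 and 1.15. Both encode H2B, and in humans the same H2B protein. Wolf 11206 was highest and wolf 11273 lowest for both, with spans of 2.67-fold for H2BC6 and 2.51-fold for H2BC4. Both passed the test (adjusted p = 9.81e-13 for H2BC6 and 6.54e-12 for H2BC4). Copies of clustered histones are near-identical, so which H2B gene either probe read is uncertain.

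H2AC12, a clustered H2A gene, had a log2 level of 1.74 in the coyote, and in the wolves it had 1.42, 1.62, 1.46, 1.85, 1.25, 1.32, 1.83, 1.98, 1.60, 1.28, 1.55, 1.97 and 1.90. The 5 wolves high in HMGB1 held the 5 highest values here too, at 1.83 or above. The SD over wolves was 0.26 against 0.17 between arrays (adjusted p = 4.83e-07), and after quantile normalization of the arrays the adjusted p was 0.0624.

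H2AC20, another clustered H2A gene, had a log2 level of 3.66 in the coyote, and in the wolves it had 3.12, 3.14, 3.36, 3.64, 1.28, 2.70, 2.96, 3.16, 2.52, 2.32, 2.61, 3.79 and 3.50. Wolf 11136 stood apart below, its 4 arrays at 1.35, 1.26, 1.04 and 1.47, and the next lowest wolf was 11274 at 2.32. The arrays of wolf 11136 also had the narrowest signal range, with a mean 95th percentile of 0.38 where the other 12 wolves had 0.57 to 0.87; its part in the low value was not tested. The gene spanned 5.67-fold over wolves (adjusted p = 2.25e-20), and it passed the test without wolf 11136 as well, at an adjusted p of 2.41e-11.

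**Figure D2:**
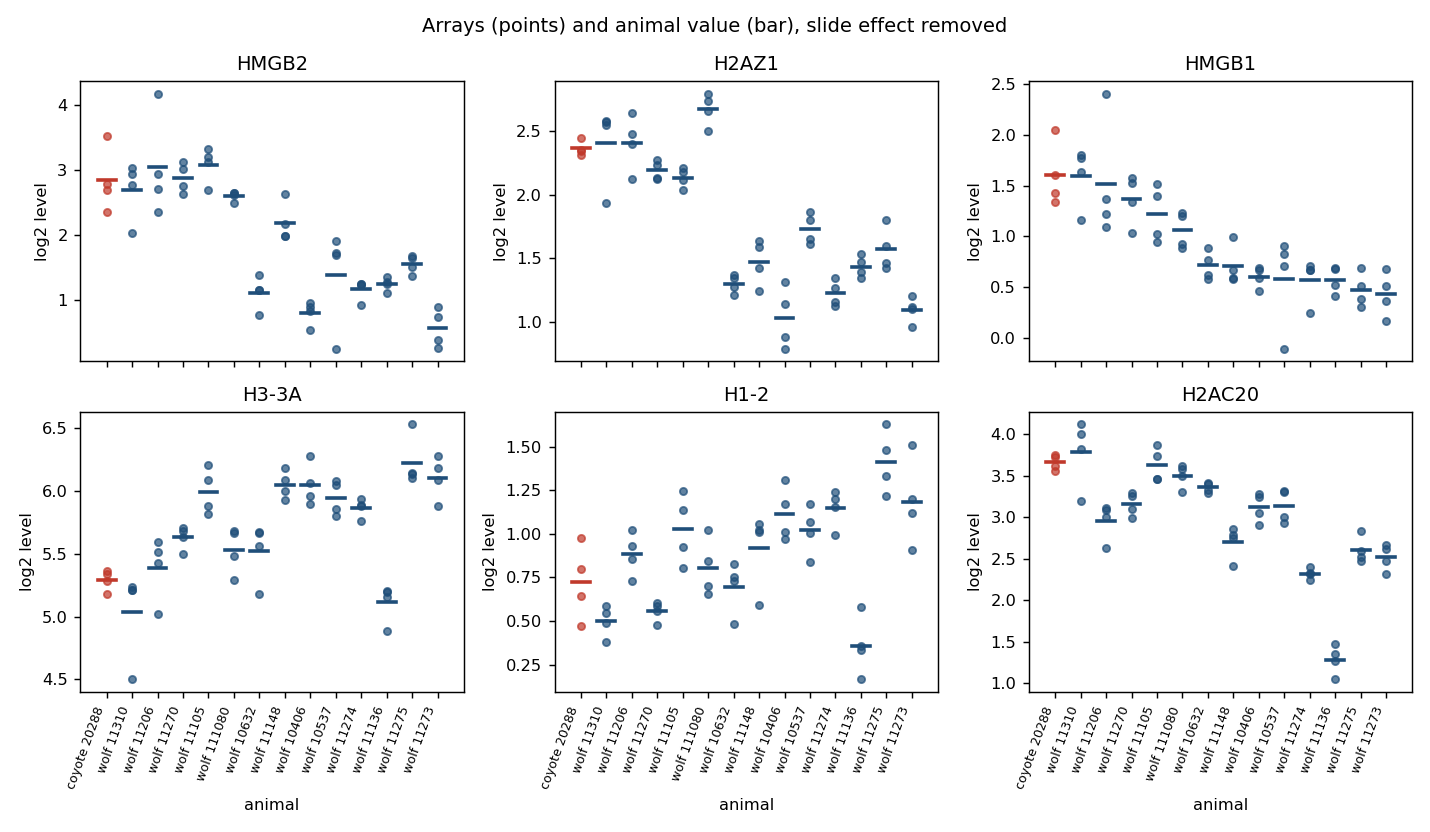
Log2 level of 6 genes on each array (points, slide effect removed) and the value of each animal (bar), for the coyote (left, red) and the 13 wolves (blue, in falling order of HMGB1). Each panel has its own vertical axis. For HMGB2, H2AZ1 and HMGB1 the coyote and 5 wolves lie above most others, H3-3A and H1-2 are lowest in wolves 11310 and 11136, and for H2AC20 wolf 11136 lies apart at 1.28.

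H3-3A encodes H3.3, the H3 variant that replaces H3 outside replication. It had a log2 level of 5.29 in the coyote, and in the wolves it had 6.05, 5.95, 5.52, 5.99, 5.11, 6.05, 5.39, 5.63, 6.11, 5.87, 6.23, 5.04 and 5.53. Wolves 11275 and 11273 were highest, 11310 and 11136 lowest, so the order was unlike that of HMGB2 or H2AZ1. The SD over wolves was 0.39 against 0.21 between arrays (adjusted p = 2.21e-09). H3-3B, which encodes the same H3.3 protein, lay below the bound at -0.29.

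H1-2, a clustered linker histone, had a log2 level of 0.72 in the coyote, and in the wolves it had 1.11, 1.02, 0.70, 1.03, 0.36, 0.92, 0.88, 0.56, 1.18, 1.15, 1.41, 0.50 and 0.81. Its extremes were those of H3-3A: 11275 and 11273 were the highest wolves, and 11136 and 11310 the lowest. The SD over wolves was 0.30 against 0.17 between arrays (adjusted p = 2.51e-09).

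H2AZ2, which encodes the second H2A.Z protein, was read by 3 probes, and these did not go together. The brightest, probe 1, had a log2 level of 1.64 in the coyote, and in the wolves it had 2.22, 2.15, 2.04, 2.67, 1.73, 2.20, 2.10, 1.67, 2.40, 2.16, 2.34, 1.27 and 1.87. Its SD between arrays, 0.43, was larger than its SD over wolves, 0.36, and only 0.27 of the variance lay between wolves (adjusted p = 0.00562). Without the slide term the adjusted p was 0.104, with slide as a random block 0.109 and without wolf 11310 0.159, so the call for probe 1 depends on these choices.

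Probe 2 of H2AZ2 had 1.63 in the coyote, and in the wolves it had 0.84, 1.65, 1.22, 1.66, 1.23, 1.08, 2.06, 1.80, 0.61, 1.07, 1.26, 2.08 and 1.92. Probe 3 had 0.94 in the coyote, and in the wolves it had 0.18, 0.44, 0.45, 0.66, 0.28, 0.36, 1.00, 0.87, -0.01, 0.37, 0.33, 1.29 and 0.71. Wolf 11310, the lowest of all wolves on probe 1, was the highest on probes 2 and 3, and wolf 11273, among the highest on probe 1, was the lowest on both. The share of variance between wolves was 0.81 for probe 2 and 0.60 for probe 3 (adjusted p = 2.12e-14 and 2.16e-08).

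Over the 13 wolves probes 2 and 3 had r = 0.92 with each other (Spearman rho 0.89), adjusted p = 0.00013 by permutation, and with probe 1 they had r = -0.49 and -0.60 (rho -0.57 and -0.58), adjusted p = 0.125 and 0.0632. Probe 2 went with H2AZ1 at r = 0.94 (rho 0.96, adjusted p = 0.00013) and probe 3 with HMGB1 at r = 0.95 (rho 0.91, adjusted p = 0.00013), while probe 1 went with H3-3A at r = 0.82 and H1-2 at r = 0.80 (rho 0.86 and 0.88, adjusted p = 0.00107 and 0.00263). These relations are among 39 that were computed after the levels of the probes were seen, with p-values adjusted over the 39. What each probe bound in canid RNA was not examined.

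HMGN3, a nucleosome-binding protein, had a log2 level of 0.87 in the coyote, and in the wolves it had 0.30, 0.89, 0.64, 0.51, 0.50, 0.39, 1.11, 0.84, 0.59, 0.68, 0.84, 0.56 and 0.48. Wolf 11206 was highest and 10406 lowest, and the SD over wolves was 0.23 against 0.16 between arrays (adjusted p = 3.47e-06). The other HMGN genes, HMGN1, HMGN2, HMGN4 and HMGN5, lay below the bound and did not pass. HMGA1, an AT-hook protein, had 0.43 in the coyote, and in the wolves a lowest value of 0.33, a median of 0.64 and a highest of 0.92. Its SD over wolves was 0.17 against 0.15 between arrays (adjusted p = 0.00218), and without wolf 11136, the lowest, the adjusted p was 0.0832. The dimmer probe of HMGA1, below the bound, did not differ among wolves (adjusted p = 0.584, limma F test). HMGA2, the related gene of fetal tissues, lay below the bound.

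The 3 genes that passed below the bound differed by small amounts. H3C10 lay between -0.05 and 0.48 over wolves (adjusted p = 0.0404), H2BC3 between -0.15 and 0.41 (adjusted p = 0.00101) and H4C6 between -0.51 and -0.04 (adjusted p = 0.00473). The coyote stood at 0.11, 0.22 and -0.27 in the same order, inside the range of the wolves. Of the 3, H2BC3 had its extremes in wolves 11206 and 11273, as H2BC4 and H2BC6 had. The dimmer probe of H2AJ, also below the bound, passed as well (adjusted p = 0.0267, limma F test). The brighter probe, which stood for H2AJ in the counts, did not (adjusted p = 0.42).

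The second comparison asked which of the 13 genes above the bound went together over the wolves, with 1 value per wolf. Of 78 pairs, 28 had a correlation at an adjusted p under 0.05 (permutation test, 100000 resamples, two-sided, adjusted over the 78 pairs), and by Spearman's rho 30 had one, 27 of them by both. The 27 positive pairs were 34.6% and the 1 negative pair 1.28% of the 78. Among all pairs of named genes above the bound, 24.8% were at least as strongly positive as the weakest of the 28 (r = 0.67) and 0.522% as strongly negative.

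HMGB2, HMGB1, H2AZ1, H1-10, H2BC6, H2BC4 and H2AC12 made up most of the called pairs, each correlated with the other 6. H3-3A, H2AZ2 (probe 1), H1-2 and HMGA1 had 4 called pairs among themselves, and the negative pair joined H3-3A to H2BC4 (r = -0.71, rho -0.73, adjusted p = 0.0246). HMGN3 had no called pair, and H2AC20 had called pairs with H1-10 and H2AC12.

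The 6 pairs with the smallest p were the following. H2BC6 and H2BC4 had r = 0.96 (rho 0.96, permutation p = 1e-05, the smallest that these resamples can give, adjusted p = 0.00078), 0.94 without the 2 wolves farthest from the median of H2BC6, and 0.69 to 0.99 within the 7 slides. HMGB2 and H2AZ1 had r = 0.90 (rho 0.86, permutation p = 9e-05, adjusted p = 0.00234), 0.89 without 2 wolves and 0.62 to 0.96 within slides. HMGB2 and HMGB1 had r = 0.89 (rho 0.75, permutation p = 8e-05, adjusted p = 0.00234), 0.85 without 2 wolves and 0.73 to 0.93 within slides.

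The linker histone H1-10 and H2AZ1 had r = 0.88 (rho 0.82, permutation p = 0.00017, adjusted p = 0.00265), 0.84 without 2 wolves and 0.65 to 0.98 within slides. H3-3A and H1-2 had r = 0.88 (rho 0.87, permutation p = 0.00013, adjusted p = 0.00253), 0.78 without 2 wolves and 0.67 to 0.88 within slides. H2AZ1 and H2BC6 had r = 0.86 (rho 0.85, permutation p = 0.00029, adjusted p = 0.00368), 0.84 without 2 wolves and 0.75 to 0.94 within slides. The correlations of these 6 pairs were thus positive on each of the 7 slides. The slides hold overlapping sets of the same wolves and the same labelled RNA, so they are not independent repeats.

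**Figure D3:**
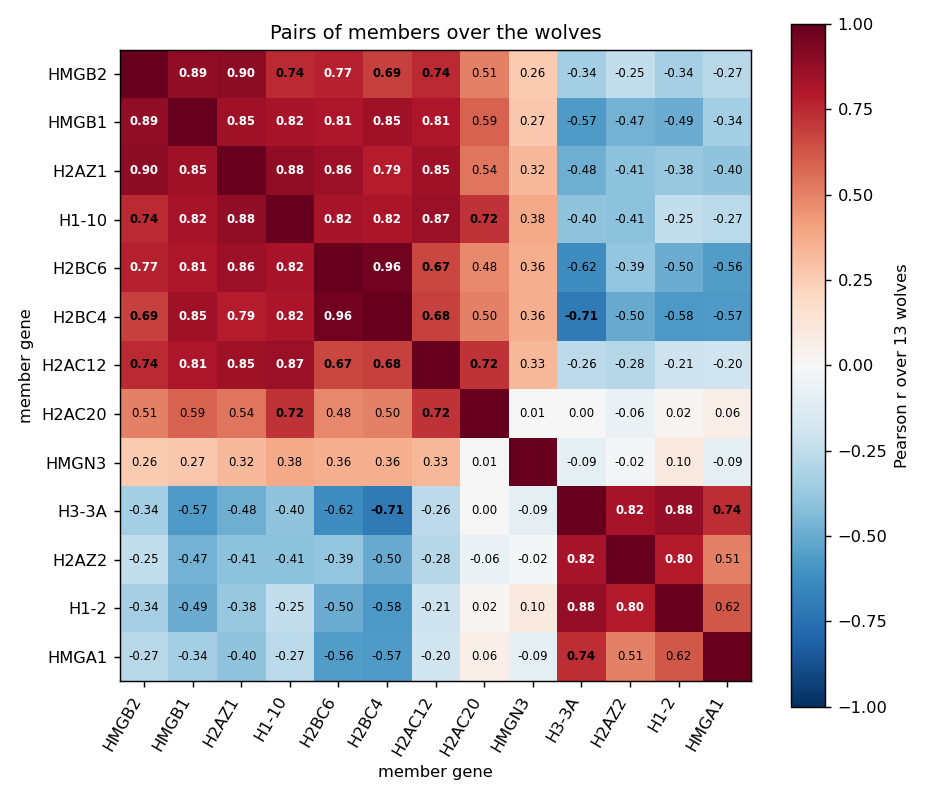
Pearson's r over the 13 wolves for each pair of the 13 genes above the bound (colour and number; bold where the adjusted permutation p is under 0.05). The block of HMGB2, HMGB1, H2AZ1, H1-10, H2BC6, H2BC4 and H2AC12 at the upper left lies between 0.67 and 0.96. H3-3A, H2AZ2 (probe 1), H1-2 and HMGA1 at the lower right lie between 0.51 and 0.88.

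Because HMGB1 left a gap between 0.72 and 1.06, part of a correlation over the 13 wolves can come from the step between both sides. Over the 8 wolves below the gap, 4 of the 78 pairs had an exact permutation p under 0.05 after adjustment over the 78, and all 4 were among the 28. H3-3A with H2AZ2 probe 1 had r = 0.95 there (adjusted p = 0.0261, exact permutation), H2BC6 with H2BC4 0.95 (adjusted p = 0.0261), H3-3A with H1-2 0.94 (adjusted p = 0.0411) and H2AZ2 probe 1 with H1-2 0.92 (adjusted p = 0.0411). HMGB2 with H2AZ1 had 0.69 (adjusted p = 0.494), HMGB2 with HMGB1 0.48 (adjusted p = 0.528) and H2AC12 with HMGB1 -0.47 (adjusted p = 0.542), and 5 of the 28 pairs changed sign. With 8 wolves, and with the range of HMGB1 narrowed by the choice, a missed call does not show that the genes are unrelated. The 5 wolves above the gap were too few for a correlation.

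The scale of the arrays also bore on which pairs were called. After quantile normalization 31 pairs were called, 14 positive and 17 negative, and with each array scaled to 1 SD 40 were called, 20 positive and 20 negative, where the deposited values gave 27 and 1. Of the 28 pairs, 14 kept their call with quantile normalization and 20 with scaling, and none of those changed sign. The calls of positive and of negative pairs thus both depend on the scale, among them H3-3A with H1-2, at r = 0.59 after quantile normalization (adjusted p = 0.0755) and 0.42 after scaling (adjusted p = 0.207). None of the 13 genes was correlated with the mean 95th percentile of a wolf's arrays at an adjusted p under 0.05 over the 13 relations (largest r 0.53, for H2AC12, rho 0.52, adjusted p = 0.249 by permutation, and 0.25 without wolves 11136 and 10406), and 0 of them had an unadjusted p under 0.05. All 13 values of r were positive, the smallest 0.03 for H2BC4. With 13 wolves a missed call does not show that a gene is unrelated to the range.

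Beside these patterns stand the markers of blood cells. In whole blood, fewer cells of a type and less RNA of a gene per cell cannot be told apart. The mean log2 level of the 9 red cell markers above the bound (HBA1, HBA2, HBB, HBD, HBG1, HBG2, AHSP, GATA1 and BNIP3L) was 2.01 in the coyote, and in the wolves it had 2.62, 2.35, 2.17, 2.82, 1.96, 2.43, 2.14, 2.07, 2.62, 2.55, 2.67, 1.68 and 2.16. Wolf 11105 was highest and wolf 11310 lowest.

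Over the 13 wolves this red cell score had r = 0.95 with H2AZ2 probe 1 (rho 0.96, adjusted p = 0.00078, permutation), 0.92 with H3-3A (rho 0.88, adjusted p = 0.00078) and 0.87 with H1-2 (rho 0.90, adjusted p = 0.00312). Without the 2 wolves of extreme score, 11310 and 11105, the values were 0.89, 0.92 and 0.94, and within slides the lowest were 0.45, 0.50 and 0.64. Of the named genes above the bound that are not in the score, 8.75% had an r with it as high as that of H1-2. HMGB2, H2AZ1 and HMGB1 had r = -0.32, -0.48 and -0.53 with the score, and none of these passed (adjusted p = 0.61, 0.314 and 0.245). After quantile normalization they had -0.61, -0.86 and -0.81, so the size of the negative relations depends on the scale. Probes 2 and 3 of H2AZ2 had r = -0.58 and -0.64 with the score (rho -0.55 and -0.54, unadjusted permutation p = 0.0396 and 0.0177).

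**Figure D4:**
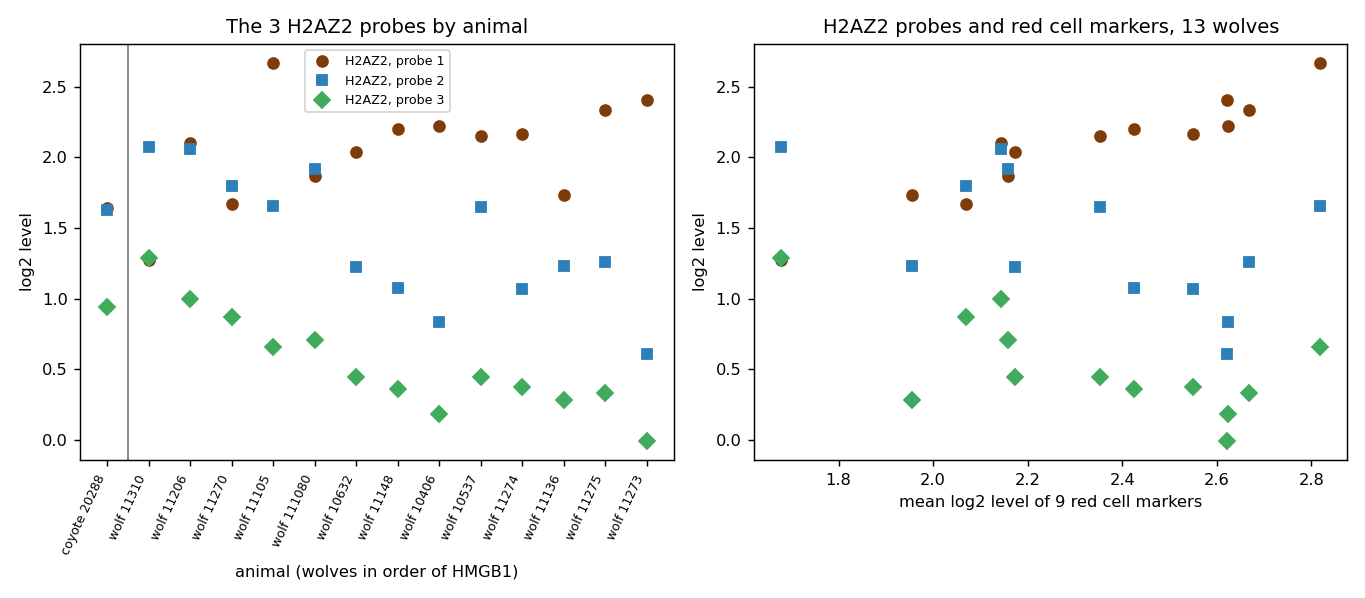
Left, log2 level of the 3 probes of H2AZ2 in the coyote and the 13 wolves (in falling order of HMGB1). Right, the same levels in the 13 wolves against the mean log2 level of 9 red cell markers; probe 1 rises with the markers (r = 0.95), and probes 2 and 3 have r = -0.58 and -0.64.

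The white cell and platelet markers above the bound were few. Among the 78 relations of the 13 genes with the 6 marker scores, 13 had an adjusted p under 0.05 for r, and they involved only H3-3A, H2AZ2 probe 1, H1-2 and HMGA1. The share of all named genes above the bound with such an r was computed for the red cell score only. For the other scores it is therefore not known whether such relations are particular to these genes. The platelet gene PF4 went with H1-2 at r = 0.89 (rho 0.89, adjusted p = 0.00156), the NK and cytotoxic markers GZMB and CTSW with HMGA1 at 0.80 (rho 0.66, adjusted p = 0.0078) and the neutrophil gene NCF1 with H1-2 at 0.79 (rho 0.76, adjusted p = 0.012). Without the 2 wolves farthest from the median of each score these were 0.80, 0.47 and 0.70. By rho the relation with HMGA1 did not pass (adjusted p = 0.115, permutation). PF4 and NCF1 with H1-2 passed by rho (adjusted p = 0.00234 and 0.0376, permutation). With every measured marker in the score, bound or not, the 12 platelet markers had r = 0.74 with H1-2 (adjusted p = 0.0627 over 91 relations, permutation), the 12 NK and cytotoxic markers 0.40 with HMGA1 (adjusted p = 0.331) and the 21 neutrophil markers 0.34 with H1-2 (adjusted p = 0.434), so none of these 3 passed. In those 91 relations 5 passed for r. They were the 17 red cell markers with H2AZ2 probe 1, H3-3A and H1-2, and the platelet markers with H3-3A (r = 0.82, rho 0.70, adjusted p = 0.0114 for r) and HMGA1 (r = 0.81, rho 0.71, adjusted p = 0.016 for r). By rho neither platelet relation passed (adjusted p = 0.166 for each, permutation). On the deposited values, no score was correlated with HMGB2, HMGB1, H2AZ1, H1-10, H2BC6, H2BC4 or H2AC12 at an adjusted p under 0.05. After quantile normalization, r with the red cell score was -0.84 for H1-10, -0.82 for H2BC4, -0.76 for H2BC6 and -0.59 for H2AC12. With arrays scaled, r was -0.87, -0.80, -0.77 and -0.71 in the same order, so the size of these relations also depends on the scale. These relations were chosen after the levels were seen, and the part of cell make-up in the differences among wolves was not tested.

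The third comparison set the coyote against the 13 wolves, with 1 value per animal and the coyote's spread assumed equal to that of the wolves. None of the 87 genes passed limma's moderated test at an adjusted p under 0.05, where 0.0062% of all named genes (1 gene) did. At an unadjusted p under 0.05, HMGB1 and H2AC6 were higher and HMGB3, H3-4 and H2BC1 lower in the coyote, where 1.9% of named genes were higher and 1.92% lower. This count of 5 was 2 without the slide term or without the intensity trend, 4 with plain means, 6 with arrays scaled and 9 after quantile normalization, and 0 of the 13 tested with dim probes left out. The coyote lay above the range of the wolves for 7 of the 87 genes and below it for 10, where 5.63% and 6.52% of named genes did.

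HMGB1 was the one gene above the bound that left the range of the wolves. The coyote had a log2 level of 1.61, its 4 arrays at 1.34, 1.42, 1.61 and 2.05, and the wolves averaged 0.88 ± 0.42 (SD, n = 13) with a highest value of 1.59 in wolf 11310. The difference was 0.73 with an SE of 0.33, a 1.65-fold intensity (adjusted p = 0.998, limma). On the 4 slides that held the coyote it stood above the mean of the 7 wolf arrays by 0.37 to 1.31.

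The genes below the bound with the smallest p outside the range of the wolves had small differences. H2AC6, H2AC1, HMGN4 and H1-1 were above it, with differences of 0.18, 0.16, 0.17 and 0.13. HMGB3, H3-4, H4C4, H2AC18 and H4C11 were below it, with differences from the mean of the wolves of -0.21, -0.17, -0.15, -0.14 and -0.15. The SEs of these 9 differences were 0.0776 to 0.0982 and each adjusted p was 0.998. Between slides the sign of the difference turned for H2AC6, H2AC1, HMGN4, H1-1, H3-4 and H4C4. For H2AC1 it ran from -0.06 to 0.40 and for H4C4 from -0.50 to 0.10. HMGB3, H2AC18 and H4C11 were lower in the coyote on each of its slides.

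Of the 13 genes above the bound, the coyote was higher than the mean of the wolves for 9, where it was higher for 38.9% of the named genes above the bound. Of the genes in the larger block beside HMGB1, it stood above 10 of 13 wolves for HMGB2, 10 for H2AZ1, 10 for H1-10, 11 for H2BC4, 9 for H2BC6 and 8 for H2AC12. By slide the difference ran from -0.08 to 0.36 for H2BC6 and from -0.01 to 0.29 for H2AC12. Outside that block it stood above 12 for H2AC20. It stood above 2 of 13 wolves for H3-3A, 1 for H2AZ2 probe 1, 1 for HMGA1 and 4 for H1-2. By slide the difference ran from -0.76 to 0.06 for H2AZ2 probe 1 and from -0.51 to 0.14 for H1-2. For H3-3A and HMGA1 the difference was negative on each slide that held the coyote. The coyote's red cell score, 2.01, was above that of 2 of the wolves, 11136 and 11310. None of these differences passed the test.

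**Figure D5:**
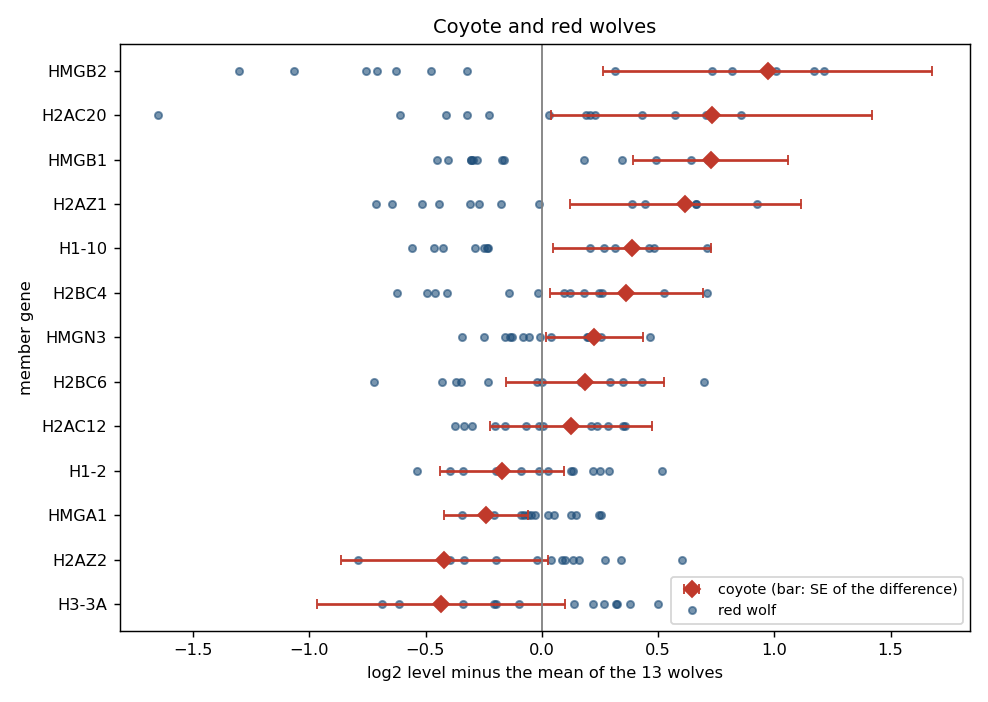
Log2 level minus the mean of the 13 wolves for the coyote (red diamonds; bars are the SE of the difference) and each wolf (blue points), for the 13 genes above the bound. The coyote lies inside the range of the wolves for 12 of the 13 genes, and for HMGB1 it lies at the upper edge.

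Genes that handle histones were counted by the same F test among wolves, beside the 12.8% of all named genes. Of the named genes 79.1% passed above the bound and 5.52% below it. Of 28 measured histone chaperones 3 differed, 2 of 3 above the bound and 1 of 25 below it. TONSL, a reader of new histones at replication forks, ran from 1.27 in wolf 11136 to 2.89 in wolf 11275. NPM1, a nucleolar chaperone, ran from 1.26 in wolf 11136 to 2.50 in wolf 11310. The third, SUPT6H, an elongation factor, lay below the bound on average. None of 15 measured genes of histone message transcription and 3′ processing differed, all of them below the bound, and 2 of 31 replication and proliferation genes did (CCNE1 and CCNB2), with none of the 31 above the bound.

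Of 23 measured acetylation genes 4 differed, 3 of 3 above the bound and 1 of 20 below it. KAT8, an acetyltransferase of histone H4, ran from 0.31 in wolf 11273 to 2.05 in wolf 11310 (adjusted p = 7.96e-21). HDAC1, a deacetylase, and EP300, an acetyltransferase, were highest in wolf 11206, at 1.27 and 1.07, and lowest in wolf 11273, at 0.02 and 0.04 (adjusted p = 4.06e-16 and 1.16e-11). HDAC11, whose mean lay below the bound, ran the other way, from 0.06 in wolf 11310 to 0.62 in wolf 11273 (adjusted p = 2.83e-06).

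Of 34 measured methylation and citrullination genes 11 differed, 6 of 7 above the bound and 5 of 27 below it. This list held more genes above the bound, 20.6%, than the named genes did, 9.91%. KMT2E, of the MLL family, ran from 0.63 in wolf 11273 to 2.67 in wolf 11206, a 4.11-fold span (adjusted p = 2.01e-24). KMT5B, a methyltransferase of histone H4, ran from 0.82 in wolf 10406 to 2.24 in wolf 11270 (adjusted p = 4.29e-21). NSD3, an H3 methyltransferase, and KMT5C, which acts on H4 and lay below the bound on average, were highest in wolf 11206, at 1.40 and 0.77 (adjusted p = 7.14e-14 and 9.78e-12). Of 12 measured receptors and partners of HMGB1, 2 differed, 1 of 1 above the bound and 1 of 11 below it. They were XPO1, a nuclear exporter, highest in wolf 11206 at 1.24 (adjusted p = 3.31e-11), and TLR9, a DNA sensor, which lay below the bound (adjusted p = 0.0357).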

How the data were processed

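Per the submitters' processing notes, BeadStudio 1.5.0.34 read the signals of the 56 arrays. The file deposited by the authors holds log2 intensities, centred on each array's median per the labels' design text; the values themselves average 0 on each array (absolute means up to 3.24e-09) and the medians lie between -0.167 and -0.0325. No source used here says whether background was subtracted. Of 24354 probes, 18339 have 1 gene symbol in the platform annotation and 6015 have none. No canid genome and no probe sequence was used.

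Arrays of an animal had a median correlation of 0.879 across probes and arrays of different animals 0.839, and no arrays were identical. Fits used limma 3.58.1 (R 4.3.3), its eBayes step with an intensity trend, and correlations numpy 2.4.6 and pandas 2.3.3. Among wolves, the animal terms were tested with slide as a covariate, against the spread of the 4 arrays. For the coyote test, each of the 14 animals entered with 1 value, its term in a model with slide. Adjusted p-values of the fits are Benjamini-Hochberg over all probes, and those of correlations over the relations stated, at 0.05. The tests were run on simulated data with large set differences, whose other probes had little or no spread between animals. That check does not show how the tests perform at the spread of these data. Alternatives were the slide term, normalization, filters, probes per gene and left-out wolves or arrays; the relations with cell markers, the H2AZ2 probes and the wolves below the HMGB1 gap were added after the data were seen. The genes and lists were chosen with earlier results of these data known.

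Genes named are those above the bound or past the F test (the values of all animals for the 12 whose wolves spread most); in the coyote comparison, up to 5 per direction outside the range of the wolves with the smallest p, up to 4 per other list by SD over wolves, and the 6 pairs with the smallest p. H2BC1 and H3-3B, the probes of H2AZ2 and the markers were named after their values were seen.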

Additional observations from a re-analysis of the deposited data

Results flagged for a closer look

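Within an animal, the 4 arrays were checked for 1 that lay far from the other 3 (Dixon's test at 95%) in each of the 14 animals, for the 12 genes whose wolves spread most. Of 168 groups of 4 arrays, 15 held such an array, where chance gives about 1 in 20, or 8.4. No cause was tested. For HMGB2 such arrays stood at 0.26 in wolf 10537 (the highest of the others 1.91) and 0.93 in wolf 11274 (the other 3 arrays 1.23 to 1.26). For H2AZ1 the array stood at 1.94 in wolf 11310 (the other 3 arrays 2.55 to 2.58). For H1-10 such arrays stood at 0.90 in wolf 11105 (the other 3 arrays 1.20 to 1.25) and 1.75 in wolf 11206 (the other 3 arrays 1.25 to 1.33). For HMGB1 the array stood at 0.25 in wolf 11274 (the other 3 arrays 0.67 to 0.71). For H2BC4 the array stood at 0.52 in wolf 11136 (the other 3 arrays 0.98 to 1.01). For H2BC6 the array stood at 0.73 in wolf 10406 (the other 3 arrays 0.85 to 0.87). For H3-3A such arrays stood at 4.89 in wolf 11136 (the other 3 arrays 5.16 to 5.20), 6.53 in wolf 11275 (the other 3 arrays 6.10 to 6.14) and 4.50 in wolf 11310 (the other 3 arrays 5.21 to 5.23). For H2AZ2 such arrays stood at 0.89 in wolf 11148 (the other 3 arrays 2.55 to 2.73) and 1.42 in wolf 11270 (the other 3 arrays 1.74 to 1.77). For H1-2 the array stood at 0.59 in wolf 11148 (the other 3 arrays 1.01 to 1.06). For H2AC12 the array stood at 1.79 in wolf 11275 (the other 3 arrays 1.44 to 1.49). In wolf 11310 the low array for H3-3A and for H2AZ1 was the same one. Its 95th percentile, 0.332, was the lowest of the 56 arrays, where the wolf's other 3 had 0.575 to 0.839, and HMGB2, HMGB1, H2AC20, H2AC12, H2BC6, H2BC4, H1-10, HMGN3, H1-2 and H2AZ2 were also lowest there among the wolf's arrays; its part was not tested.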

How the results depend on the processing

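The count of 16 genes that differed among wolves was between 12 and 17 under the other settings: 12 without the slide term, 14 with slide as a random block, 16 after quantile normalization, 17 with arrays scaled, 15 without the intensity trend, 15 with a gene's probes averaged and 13 of 13 with dim probes left out. Of all probes tested, 11.2% passed in the main fit. In the order of those settings 8.13%, 9.61%, 10.7%, 11.4%, 11.2%, 11.3% and, with dim probes left out, 86.7% passed. Without 1 wolf the count of genes was 14 to 17, where 9.14% to 11.4% of all probes passed. Without 1 array per animal it was 13 to 15, where 6.69% to 9.84% of all probes passed. HMGB2, HMGB1, H2AC20, H2AZ1, H1-10, H2BC6, H2BC4, H3-3A, H1-2 and HMGN3 passed in all these fits, and H3C10 lost its call in 13 of 24. H2AC12, H2AZ2, HMGA1, H2BC3 and H4C6 lost it in 1 to 4 fits each. The count of 0 for the coyote held in each setting run, and the 5 at an unadjusted p under 0.05 were 0 to 9. The coyote's difference for HMGN4 was -0.0020 without replicate 2 and 0.35 without replicate 3, where it was 0.17 with all arrays. The count of 28 correlated pairs was 24 to 43 when 1 wolf was left out. It was 43 without wolf 11136, with 30 positive and 13 negative, and 4 of the 78 over the 8 wolves below the HMGB1 gap, a choice with fewer wolves; the cause was not tested. With the mean of the 3 H2AZ2 probes, r with the red cell score was -0.24 (permutation p = 0.435), where probe 1 alone had 0.95; probes 2 and 3 ran against probe 1. That mean also turned the sign of 2 called pairs, those of H2AZ2 with H3-3A and H1-2. The labels number no replicates, so the replicate numbers used here count an animal's arrays in the order of the slides. No animals were paired for a test, and slide, which they share, is a term of the fits.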
